A study of Mus musculus with 20 samples.

Results

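Imprinted genes are transcribed mainly from the copy inherited from the mother or mainly from the copy inherited from the father. They were examined in 20 single cells of the mouse inner cell mass, the part of the blastocyst that forms the epiblast and the primitive endoderm. The set was a list of 36 genes drawn up from general knowledge of mouse imprinting: 13 expressed from the maternal allele, 22 from the paternal allele, and Gnas, whose parental origin depends on the isoform. A gene was measured by the probe set with the highest mean level among those annotated to that gene alone. This left 34 of the 36 members, of 18193 genes on the array: 12 maternally expressed, 21 paternally expressed, and Gnas. Zrsr1 had no probe set here, and H19 had only a probe set annotated jointly to Mir675 and H19, which was above the array's background in 0 cells.

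The parental marks are set in the egg and the sperm as DNA methylation at control regions, and they are kept through the wave of demethylation that follows fertilisation. Many of the genes lie in clusters in which 1 control region and a long non-coding RNA govern neighbours of opposite parental expression. The genes are known for roles in growth of the fetus and the placenta, and several are switched on only after implantation. All animals were of the inbred strain C57BL/6, so an array reading is the sum of both alleles, and "maternally expressed" and "paternally expressed" are classes from general knowledge and were not measured.

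The study held 1 group of 20 samples: untreated single cells picked at random from trypsin-dissociated inner cell masses of C57BL/6 blastocysts at embryonic day 3.5, each amplified by PCR and hybridised to 1 Affymetrix array. Of 55 cells picked, 50 were retained by a PCR screen for Oct4 and against Cdx2. The labels tie no cell to an embryo, so no test was run: differences below are descriptions of these 20 cells, and cells are called by their replicate number. Clustering on genes other than the imprinted ones and the marker lists gave 10 epiblast-like cells (1, 2, 7, 9, 12, 13, 14, 16, 18 and 19) and 10 primitive endoderm-like cells (3, 4, 5, 6, 8, 10, 11, 15, 17 and 20). Splitting the cells by Fgf4 gave the same clusters.

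Levels are log2 of quantile-normalized intensity plus 8.75, so the lowest level possible is 3.29. A gene was counted as detected in a cell where its level was above the floor of that array, the 95th percentile of 185 probe sets of odorant and pheromone receptor genes and of genes of unrelated tissues. The floors lay between 6.5 and 7.27. Of these 185 probe sets, 15 (8.11%) were themselves above the floor in 3 or more cells. An array stands for a single cell, so a low level can come from less RNA in the cell or from less of it amplified, and these cannot be told apart. The cells had 6528 to 7995 genes above the floor. Cell 19 stood apart by its deposited median intensity of 14.97, against 25.6 to 30.1 on the other arrays. Cells 4, 8, 17 and 20, all primitive endoderm-like, had low scores for G2 and M phase genes (-2.83 to -1.21, against -0.48 to 0.98 in the epiblast-like cells). Pou5f1, the pluripotency gene of the screen, averaged 10.8 ± 0.49 (SD, n = 20). Of 13 trophectoderm markers, 8 were above the floor in 3 or more cells and Elf5, Gata3, Krt7, Krt19 and Atp12a in none. Hand1 was above it in all 20 cells at a flat 13.70 ± 0.08 (SD), Tfap2c and Tead4 in 13 each, and Eomes, Krt8, Krt18 and Lgals3 in fewer. Whether the flat Hand1 reading is transcript of that gene was not tested. Cdx2, the gene screened against, was above the floor in 19 cells at a flat level close to the floor (7.43 ± 0.35). The trophectoderm score ranged from -1.51 to 0.80 in epiblast-like cells and from -0.74 to 0.51 in primitive endoderm-like cells. It is centred per gene, so it compares cells and cannot show whether these genes were on.

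Promoter windows of 4 members that the results turn on are given here, from 250 bases before to 50 bases after the annotated start, from RefSeq (GRCm38.p6): Meg3 (chr12:109540746-109541045, plus strand), which varied most between cells; Mest (chr6:30737800-30738099, plus strand), which differed most between the clusters; Peg3 (chr7:6730370-6730669, minus strand), detected in every cell; and Snrpn (chr7:60005150-60005449, minus strand), detected in 18. Where a gene had several windows, the one with the most CpG dinucleotides is shown. Capitals mark CpG, the dinucleotide whose methylation carries the imprint.
Meg3: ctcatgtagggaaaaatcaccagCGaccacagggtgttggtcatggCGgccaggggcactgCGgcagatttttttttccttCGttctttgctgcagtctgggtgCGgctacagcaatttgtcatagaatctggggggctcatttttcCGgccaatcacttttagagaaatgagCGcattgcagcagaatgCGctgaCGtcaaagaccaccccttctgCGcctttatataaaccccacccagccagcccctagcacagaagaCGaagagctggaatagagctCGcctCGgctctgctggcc
Mest: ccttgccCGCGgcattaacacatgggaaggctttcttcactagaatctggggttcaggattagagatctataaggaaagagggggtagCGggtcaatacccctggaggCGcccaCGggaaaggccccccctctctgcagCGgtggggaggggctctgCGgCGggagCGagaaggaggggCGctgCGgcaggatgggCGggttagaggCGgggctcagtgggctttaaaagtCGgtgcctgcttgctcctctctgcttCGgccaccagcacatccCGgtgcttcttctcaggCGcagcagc
Peg3: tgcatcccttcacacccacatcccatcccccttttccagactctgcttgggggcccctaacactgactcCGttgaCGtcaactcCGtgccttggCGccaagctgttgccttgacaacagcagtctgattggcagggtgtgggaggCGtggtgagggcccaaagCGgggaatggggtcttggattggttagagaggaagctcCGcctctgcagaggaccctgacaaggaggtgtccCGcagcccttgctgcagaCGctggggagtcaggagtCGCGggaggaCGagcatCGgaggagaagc
Snrpn: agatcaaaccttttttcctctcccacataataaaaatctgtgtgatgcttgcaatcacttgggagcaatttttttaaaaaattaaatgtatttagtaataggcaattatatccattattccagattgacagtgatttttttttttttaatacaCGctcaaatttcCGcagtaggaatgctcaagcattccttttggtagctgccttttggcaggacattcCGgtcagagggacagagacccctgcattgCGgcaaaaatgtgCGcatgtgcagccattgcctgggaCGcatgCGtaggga

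These windows held 13 CpG in Meg3, 17 in Mest, 13 in Peg3 and 7 in Snrpn. Taking the richest window of each gene, the median over the 29 members with a window counted was 15 CpG, against 8 over the 27025 genes of the table. Members without a counted window, among them Impact and Dcn, had none in the reference or lay on a chromosome left out for the members. It was 13 for the 13 members detected in at least 3 cells and 16 for the 16 others. The letters TGCCGC, which the imprint-protecting zinc finger protein ZFP57 binds when methylated, were found on either strand of at least 1 window in 10 of 29 members (34.5%), against 13.1% of all genes. Each match holds a CpG, so the motif and the CpG count are not independent. The 29 members had 44 windows, against 32851 for the 27025 genes. Members thus had more windows per gene in which a match or a rich window could be found. The letters were in the printed windows of Meg3, Mest and Snrpn, and not in that of Peg3. Detected members held them in 5 of 13 cases and the others in 5 of 16. Peg3 and Usp29 start close together on opposite strands, and their windows share 263 of 300 bases.

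Most of the imprinted genes with a measurement were not broadly detected at this stage. Of the 34, 3 were above the floor in all 20 cells (Gnas, Peg3 and Zim1), against 17.3% of all genes. Detection in at least 3 cells was found for 15 members (44.1%), against 55.8% of all genes. Another 5 were above the floor in 1 or 2 cells, and 14 (41.2%) in no cell, against 35.1% of all genes. In both of the wider counts the members' share was not far from that of all genes.

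**Figure D1:**
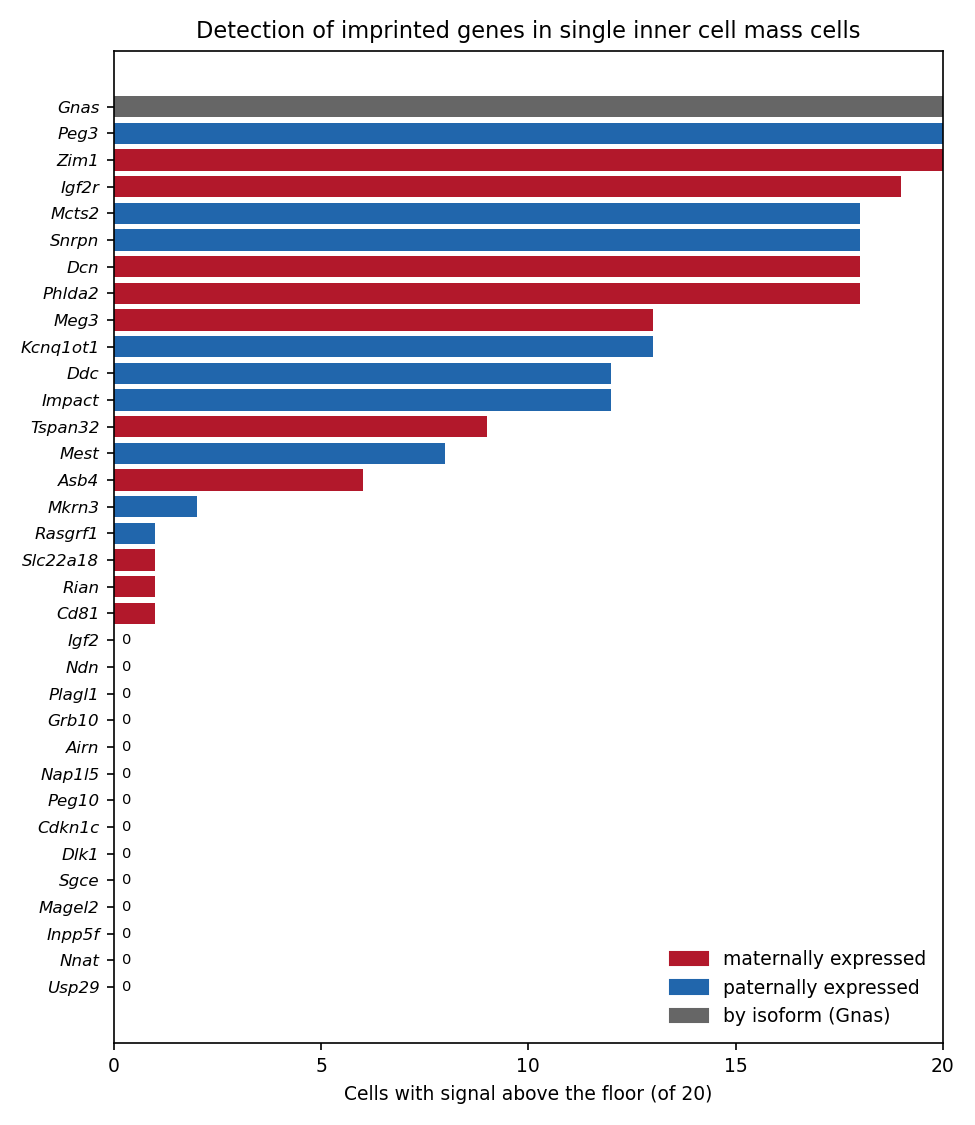
Number of the 20 cells in which each of the 34 measured imprinted genes was above the floor of its array; red bars are maternally expressed genes, blue bars paternally expressed genes and the grey bar is Gnas. Gnas, Peg3 and Zim1 reach 20 cells, and 14 genes stand at 0.

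By parental class, 7 of 12 maternally expressed genes (58.3%) and 7 of 21 paternally expressed genes (33.3%) were detected in at least 3 cells. The maternally expressed ones were Igf2r, Zim1, Dcn, Phlda2, Meg3, Tspan32 and Asb4. The paternally expressed ones were Peg3, Mcts2, Snrpn, Kcnq1ot1, Ddc, Impact and Mest. Among the 14 members detected in no cell by the probe set of highest mean, 2 were maternally expressed, Cdkn1c and Grb10, which restrain the cell cycle and growth factor signalling. The other 12 were paternally expressed: Airn, Dlk1, Igf2, Inpp5f, Magel2, Nap1l5, Ndn, Nnat, Peg10, Plagl1, Sgce and Usp29. Of these 14, Igf2, Plagl1, Airn, Inpp5f and Grb10 had another probe set above the floor in 1 to 7 cells. With the probe set of highest mean linear intensity, a choice made after seeing the data, 11 members were in no cell. The contrast between the classes depended on the floor. With the floor at the 99th percentile, the maternally expressed genes detected in at least 3 cells were Igf2r, Meg3 and Phlda2. The paternally expressed ones were then Peg3, Mcts2, Ddc, Snrpn and Impact. These shares, and every value by parental class given below, rest on few genes, several of them neighbours, and were not tested.

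Among the genes detected in every cell, Gnas encodes the stimulatory G protein alpha subunit and, from other promoters, further products of opposite parental expression. Its level was 8.36 to 11.46, median 11.05, in the 10 epiblast-like cells, against 10.88 to 11.85, median 11.51, in the 10 primitive endoderm-like cells. The low value of 8.36 was in cell 19, the cell of low deposited intensity, and the ranges overlapped. Means were 10.67 ± 0.91 and 11.46 ± 0.33 (SD, n = 10 each), a difference of -0.78, or -0.52 without cell 19. Over the 20 cells Gnas followed the epiblast minus primitive endoderm marker score with r = -0.60 (Spearman -0.73). Without the 2 cells outermost by that score, which leaves cell 19 in, r was -0.57. With the deposited median intensity Gnas had r = 0.75, but Spearman 0.10, and r = 0.15 without the 2 cells outermost by intensity. The probe set of Gnas used here does not tell its isoforms apart in the annotation, and its other 4 probe sets were above the floor in 0 cells.

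Peg3 encodes a zinc finger protein known for effects on growth and maternal behaviour. Its level was 8.61 to 10, median 9.48, in epiblast-like cells, against 9.03 to 12.70, median 9.39, in primitive endoderm-like cells. The groups overlapped, and cell 5 alone lay far above the others at 12.70. A second Peg3 probe set passed the floor in 4 cells and was also highest in cell 5 (9.03), while the remaining 3 were above it in none. Usp29, the paternally expressed neighbour whose promoter window overlaps that of Peg3, was detected in no cell (4.10 ± 0.47, SD, n = 20). Zim1, a maternally expressed zinc finger gene of the same cluster, was detected in all 20 cells at a flat level of 7.55 ± 0.30. Across the cells Peg3 and Zim1 had r = -0.36 (n = 20).

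Some flat signals close to the floor need a further value beside them. Of the 15 unrelated probe sets above the floor in 3 or more cells, 4 were above it in all 20, and 14 had an SD under 1, with a median SD of 0.32. Their mean levels ran from 5.66 to 10.11, with a median of 6.81, and 13 of the 15 were under 8. Zim1, Dcn (7.53 ± 0.48, 18 cells) and Tspan32 (6.71 ± 0.25, 9 cells) likewise had mean levels under 8 and SDs under 1, as did Phlda2, Snrpn and Kcnq1ot1 with SDs of 0.65 to 0.92. Dcn, which encodes the matrix proteoglycan decorin, and Tspan32, a tetraspanin, each had a second probe set above the floor in 0 cells. Whether these readings are transcripts of the named genes was not tested.

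Igf2r, maternally expressed, encodes the receptor that takes up and degrades the growth factor IGF2. It was detected in 19 cells, at 7.62 to 9.38, median 8.58, in epiblast-like cells, against 7.12 to 9.39, median 8.82, in primitive endoderm-like cells. The clusters overlapped almost fully, with a difference in mean of -0.02. A second Igf2r probe set passed the floor in 2 cells. Airn, the paternally expressed antisense RNA that silences Igf2r in other tissues, was detected in no cell by the probe set used (5.29 ± 0.18), and 1 of its other 4 probe sets was above the floor in 1 cell. Igf2, the ligand, was also in no cell by the probe set of highest mean (5.97 ± 0.50).

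The 2 Igf2 probe sets did not read alike (r = -0.06, n = 20). The second was above the floor in 7 cells. It read 3.29 to 7.64, median 5.05, in epiblast-like cells, with 2 of 10 detected, and 3.29 to 9.13, median 6.97, in primitive endoderm-like cells, with 5 of 10 detected. The groups overlapped over most of the range. H19, the maternally expressed partner of Igf2, gave no reading of its own.

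Snrpn encodes a splicing protein and lies in a large paternally expressed cluster. Its own probe set passed the floor in 18 cells, at 6.42 to 8.47, median 7.94, in epiblast-like cells, against 7.0 to 8.53, median 7.90, in primitive endoderm-like cells. The difference in mean was -0.10. Another 6 probe sets were annotated jointly to Snurf and Snrpn, which share a transcript, and 3 of them were above the floor in all 20 cells, at means of 10.07 to 10.50. Their clusters also overlapped, with differences of -0.08 to 0.05. The other members of the cluster were seldom or never detected: Ndn and Magel2, which encode related proteins of the MAGE family, were in no cell, and none of the 8 Ndn probe sets passed the floor in any. Mkrn3, a ring finger gene, was above it in cell 9 (8.81) and cell 19 (8.62), both epiblast-like, and read 3.29, the lowest value possible, in 17 cells.

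Mcts2, paternally expressed, is a retrogene within an intron of H13. It was detected in 18 cells, at 6.68 to 9.76, median 8.51, in epiblast-like cells, against 6.72 to 10.37, median 8.84, in primitive endoderm-like cells. Values ran over more than 3 log2 units in both clusters, which overlapped (SD 1.21 over all 20). The gene is a near copy of a gene elsewhere in the genome, so its reading is uncertain.

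The maternally expressed non-coding RNA Meg3 varied more between cells than any other member. Meg3 lies beside Dlk1 and is read from the chromosome on which Dlk1 is silent. Detection was in 13 cells, of which 7 were epiblast-like, and its SD over the 20 cells was 2.87, above 99.1% of the genes tested. Its level was 3.29 to 11.12, median 8.24, in epiblast-like cells, against 3.83 to 12.20, median 8.33, in primitive endoderm-like cells. Both clusters thus ran over almost the whole range, and the means differed by -0.21. High cells were 1, 7 and 9 among the epiblast-like (11.12, 10.30 and 10.97) and 4, 11, 17 and 20 among the primitive endoderm-like (12.20, 11.19, 11.85 and 11.18). By this probe set, low cells were 2 (3.29), 3 (3.83) and 5 (3.84).

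The pattern was shared by several probe sets annotated to Meg3, which may overlap in sequence. Of the 10 other Meg3 probe sets, 7 were above the floor in 2 to 11 cells. The 3 that followed the one used most closely had r = 0.97, 0.89 and 0.86 over the 20 cells, and were above the floor in 11, 6 and 8 cells, all of them cells in which the first was above it too. Agreement was partial for a probe set above the floor in 7 cells (r = 0.47): it read 10.44 in cell 3, a low cell by the one used. Another, above the floor in 3 cells, followed it little (r = 0.16), and 1 probe set that was above the floor in no cell had r = -0.48. The difference between clusters also varied with the probe set, from -0.21 for the one used to -1.30 for the one in 8 cells and -1.93 for the one in 7 cells. Without the 4 cells of low G2 and M phase score, 3 of which were high in Meg3, the difference of the probe set used turned to 1.02.

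**Figure D2:**
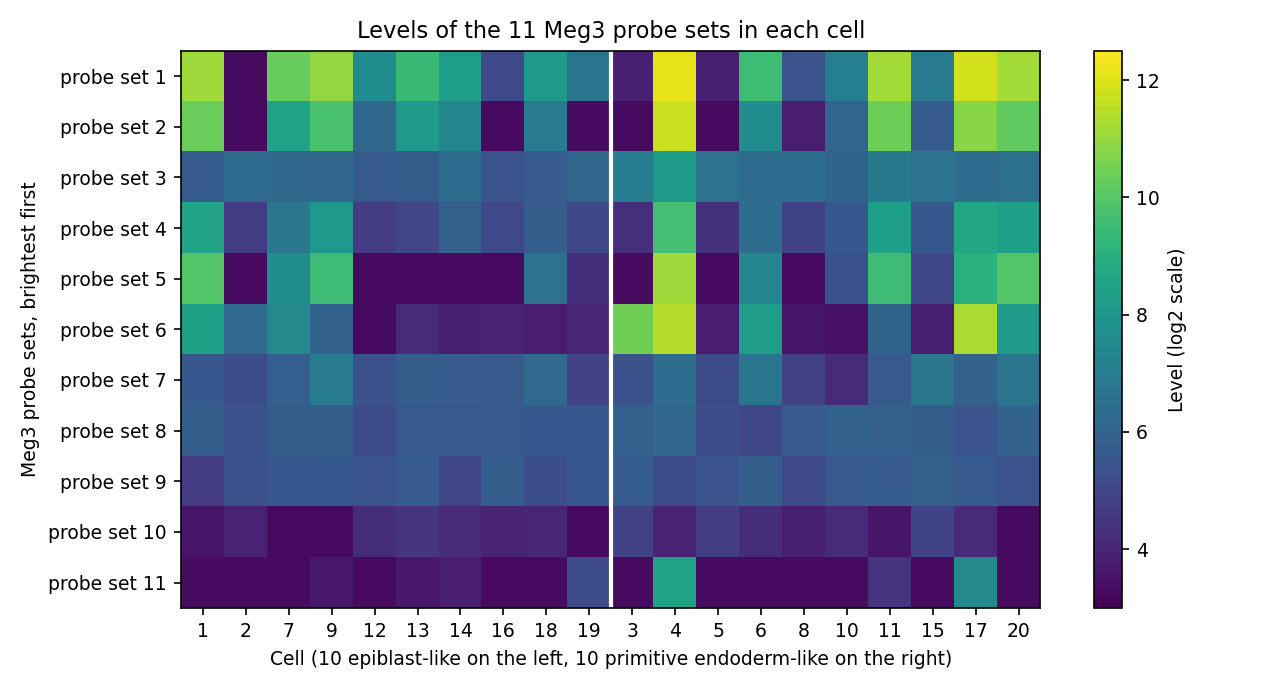
Levels (log2 scale, colour) of the 11 Meg3 probe sets in each cell, probe sets ordered by mean level from top to bottom, epiblast-like cells left of the white line and primitive endoderm-like cells right of it. The topmost probe set and 3 of the others are bright in the same cells, among them cells 1, 9, 4, 11 and 20.

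Neighbours of Meg3 differed in detection. Rian, a maternally expressed non-coding RNA of the same domain, was above the floor in 1 cell, cell 4 (7.5), which also had the highest Meg3. Its other 3 probe sets were in no cell. Dlk1, a paternally expressed Notch-like ligand, was in no cell by either probe set (4.50 ± 0.40). Among the Meg3-high cells other than cell 4, Rian read 4.17 to 5.06. Mirg, another maternally expressed non-coding RNA of the domain, taken from a further list of imprinted genes, was above the floor in 14 cells, 7 in each cluster, at a flat level close to the floor (6.90 ± 0.46, SD, n = 20).

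Mest was the only member whose cluster means differed at least 2-fold, and it was lower in the epiblast-like cells. No member was at least 2-fold higher there, against 11.1% of the 10160 genes detected in at least 3 cells, and 1 of 15 was at least 2-fold lower, against 7.70%. Mest is paternally expressed and encodes a hydrolase-like protein tied to growth. It was detected in 8 cells, 2 of 10 epiblast-like (cell 13 at 7.13 and cell 16 at 8.09) and 6 of 10 primitive endoderm-like (cells 3, 4, 8, 11, 15 and 20, at 7.58 to 8.89). Levels were 4.02 to 8.09, median 5.05, in epiblast-like cells, against 4.81 to 8.89, median 7.70, in primitive endoderm-like cells. The lower end was shared, and the difference in mean was -1.39 (5.49 ± 1.24 and 6.88 ± 1.61, SD, n = 10 each).

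Part of that size came from values below the floor, which carry little information: with these raised to the floor it was -0.73. The floors averaged 6.67 in epiblast-like cells and 6.86 in primitive endoderm-like cells, so a gene below the floor in every cell has a difference of -0.19 on that scale. The G2 and M phase score moved with Mest too (r = -0.57, n = 20, against r = -0.57 for the lineage score), and 3 of the 4 cells of low score had Mest above the floor. Without those 4 cells the difference was -0.88. The part of the cell cycle in the difference was not tested. Mest had 1 probe set here, so no second reading was at hand.

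Impact and Ddc were high in some cells of both clusters and near the lowest level in others. Impact, paternally expressed in mouse, encodes an inhibitor of the kinase GCN2. The 20 cells, 12 of which passed the floor, read 3.29 to 10.64, median 6.71, in epiblast-like cells, against 3.88 to 9.39, median 7.70, in primitive endoderm-like cells. The difference of -0.89 was -0.05 with values raised to the floor, where a gene below it in every cell has -0.19. Its other 2 probe sets were in no cell.

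Ddc encodes the enzyme that makes dopamine and serotonin from their amino acid precursors, and its imprinted isoform is known from the embryonic heart. It was detected in 12 cells, 6 in each cluster, at 3.29 to 10.12, median 8.57, in epiblast-like cells, against 3.62 to 10.34, median 8.71, in primitive endoderm-like cells. Its SD of 2.72 was above that of 98.6% of the genes tested. Cells were either above 8 or below 5.1, except cell 19 at 6.09. The second Ddc probe set was in no cell. Grb10, the maternally expressed neighbour of Ddc and an adaptor that dampens insulin receptor signalling, was in no cell by the probe set used (5.36 ± 0.50), and 1 of its other 2 was above the floor in 1 cell.

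Asb4, maternally expressed, encodes an ankyrin repeat protein of a ubiquitin ligase. Of the 6 cells in which it was detected, 4 were epiblast-like. Levels were 3.29 to 8.53, median 4.90, in epiblast-like cells, against 3.29 to 8.44, median 3.71, in primitive endoderm-like cells. The highest values were in cell 2, epiblast-like, and cell 6, primitive endoderm-like. A second Asb4 probe set passed the floor in 1 cell. Its paternally expressed neighbours Peg10, a retrotransposon-derived gene needed for the placenta, and Sgce, which encodes epsilon-sarcoglycan, were in no cell.

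The cluster of Kcnq1ot1 held 6 members. Kcnq1ot1, the paternally expressed RNA known to silence its neighbours, was detected in 13 cells, at 4.48 to 7.87, median 6.84, in epiblast-like cells, against 6.33 to 8.27, median 7.25, in primitive endoderm-like cells. The difference of -0.68 was -0.37 with values raised to the floor and -0.27 with its probe sets averaged. Its other probe sets agreed little with it, with 2 of 5 above the floor in 5 and 6 cells (r = 0.13 and -0.12). Of the maternally expressed genes on the same chromosome stretch, Phlda2, which restrains placental growth, was detected in 18 cells (7.42 ± 0.91) and did not follow Kcnq1ot1 (r = 0.10, n = 20). Tspan32 has been given above. The transporter gene Slc22a18 passed the floor in cell 13 (8.21), the tetraspanin gene Cd81 in cell 5 (7.27), and Cdkn1c in none.

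The remaining members were above the floor in few cells or none. Rasgrf1, a Ras exchange factor gene of the brain, was just above the floor in cell 1 (6.72). Plagl1, a zinc finger gene that restrains proliferation, was in no cell by the probe set used and in 2 and 1 by its other 2. The first of these read 9.88 in cell 10 and 7.67 in cell 16. Inpp5f, a phosphatase gene with an imprinted isoform of the brain, was in no cell by the probe set used and in 1 by another. Nnat, a membrane protein gene of the developing brain, and Nap1l5 were in no cell.

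**Figure D3:**
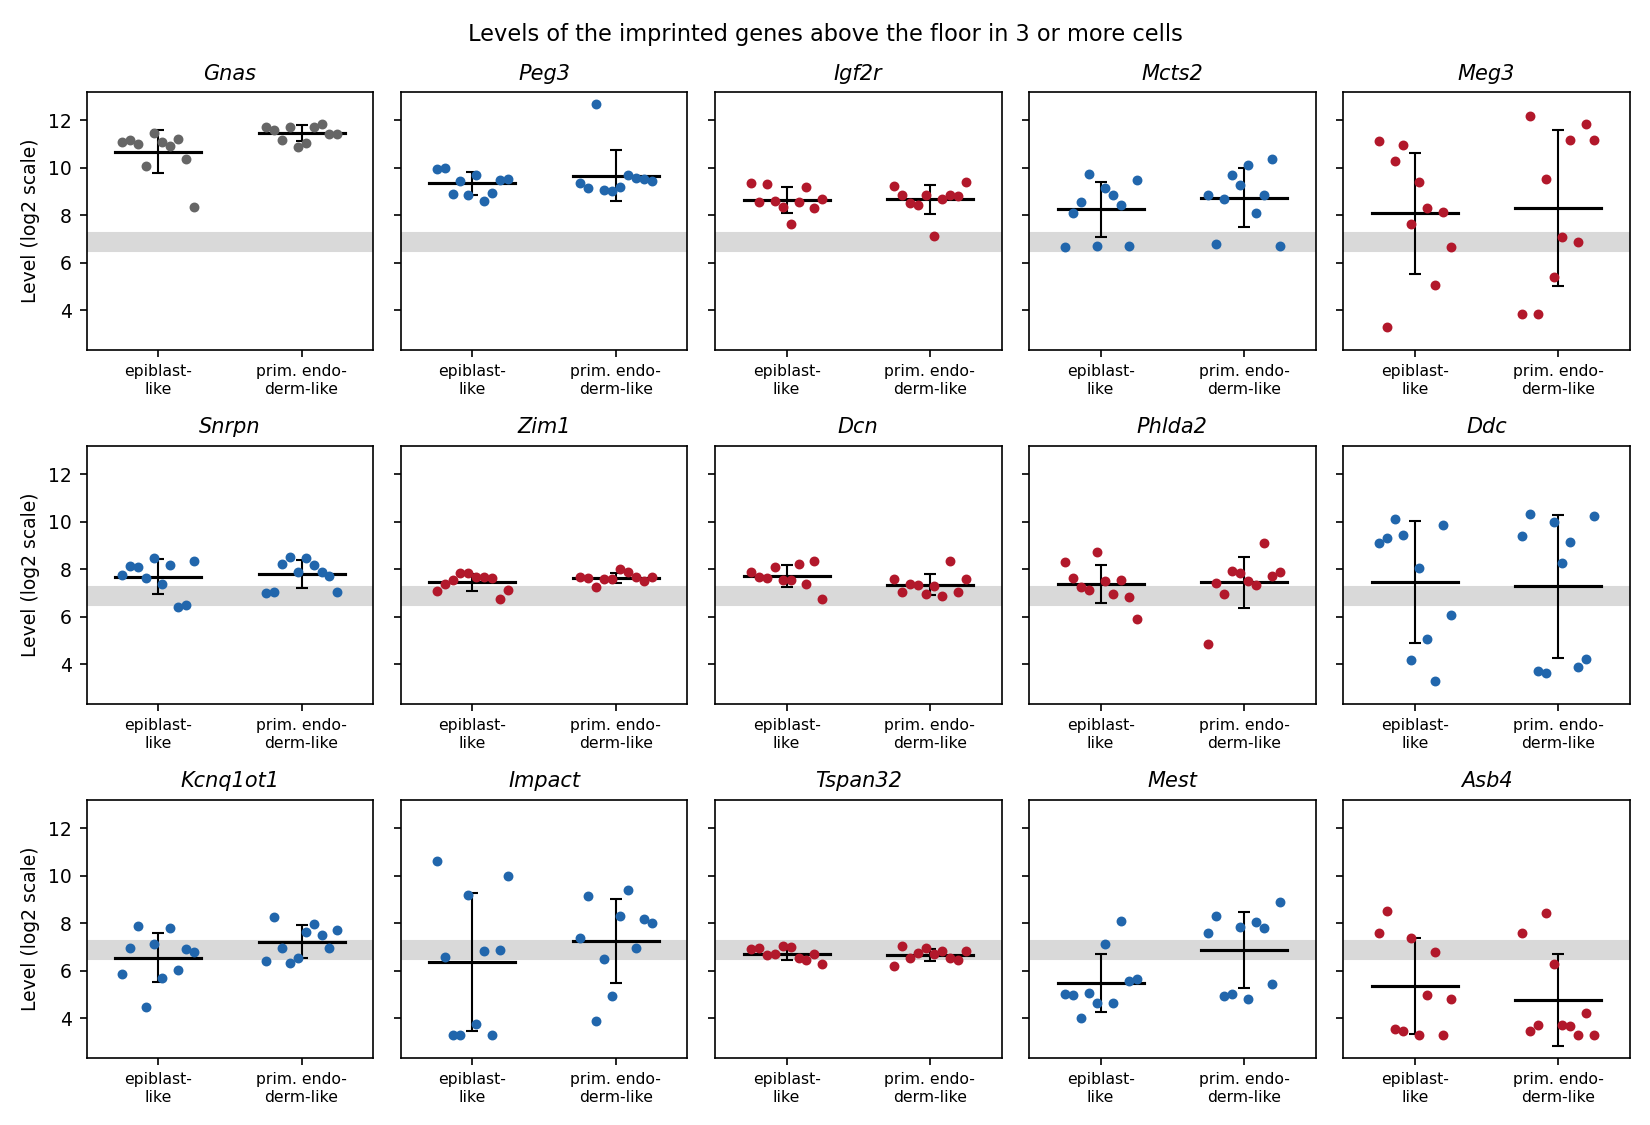
Level (log2 scale) of the 15 imprinted genes above the floor in 3 or more cells, with 1 point per cell, epiblast-like cells left and primitive endoderm-like cells right; bars are the mean ± SD (n = 10 each), the grey band spans the floors of the arrays (6.5 to 7.27), and red, blue and grey points mark maternally expressed genes, paternally expressed genes and Gnas. The clusters overlap in every panel, and Meg3, Ddc and Impact run over most of the scale in both clusters.

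Over the 15 members detected in at least 3 cells, the 2 clusters overlapped in every one. Of all 10160 genes, 0.256% had clusters that did not overlap. The median difference of the 15 was -0.19, against 0.04 over all genes, and the median size regardless of sign was 0.33, against 0.36. The mean was higher in epiblast-like cells for 4 of the 15, against 5478 of the 10160 genes tested. These 4 were 3 of the 7 maternally expressed genes and 1 of the 7 paternally expressed genes. The median difference was -0.02 for the maternally expressed and -0.50 for the paternally expressed. With values raised to the floor, the differences of Asb4 and Ddc, 2 of those 4, turned to -0.06 and -0.21, beside the -0.19 of a gene below the floor in every cell.

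Spread between cells was not larger among the imprinted genes than among genes at large. An SD of at least 1 was found for 6 of the 15 (Meg3, Ddc, Impact, Asb4, Mest and Mcts2), against 52.4% of all genes tested, and the median SD was 0.91, against 1.07. It was 0.56 over the 7 maternally expressed and 1.21 over the 7 paternally expressed. Flat signals close to the floor lie under both medians. They were Tspan32 (0.25), Zim1 (0.30) and Dcn (0.48) of the maternally expressed, and Snrpn (0.65) and Kcnq1ot1 (0.92) of the paternally expressed. Whether the classes differ in spread without such signals was not tested. Meg3 and Asb4 were the maternally expressed genes past 1, and the other 4 were paternally expressed. Set against genes whose mean lay within 0.5 of their own, Meg3 and Ddc stood at the 98.5 and 98.1 percentiles of SD, Impact at 90.8, Gnas at 87.3, and Mest, Asb4, Mcts2 and Peg3 at 41.5 to 59.1. The spread of Gnas rested largely on the 8.36 of cell 19. Without that cell its larger SD within a cluster was 0.43, against 0.91 with it.

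**Figure D4:**
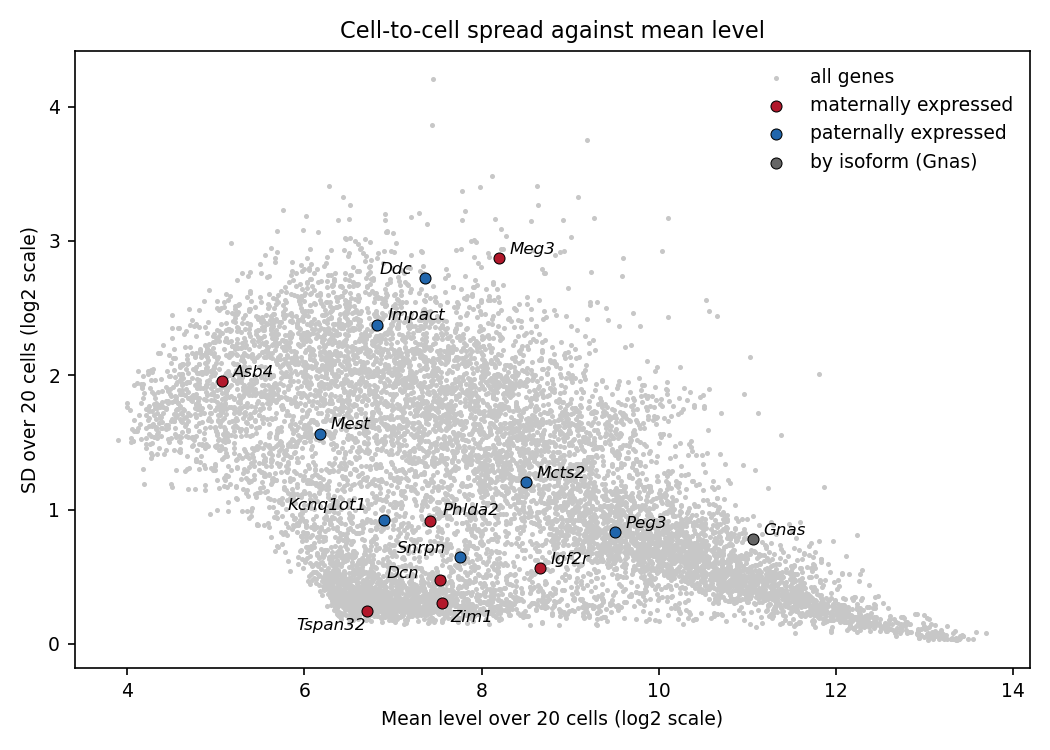
SD over the 20 cells against mean level (both on the log2 scale) for all genes detected in 3 or more cells (grey) and the 15 imprinted genes among them (red maternally expressed, blue paternally expressed, dark grey Gnas). Meg3, Ddc and Impact lie at the upper edge of the cloud, while Zim1 and Tspan32 lie at its lower edge.

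Each cell had 9 to 14 of the 34 members above its floor, with a median of 12 in epiblast-like cells, against 11 in primitive endoderm-like cells. Maternally expressed members numbered 2 to 7 per cell, median 6 in epiblast-like cells and 5 in primitive endoderm-like cells, and the lowest was cell 19. Paternally expressed members numbered 3 to 7, median 5 in epiblast-like cells and 6 in primitive endoderm-like cells. All of these ranges overlapped. The number of members detected followed the number of all genes detected weakly (r = 0.32 over 20 cells, and 0.12 without the 2 outermost cells). The maternal and paternal counts were not higher or lower together (r = -0.19, n = 20), nor were the mean levels of the classes (r = 0.02). All of these correlations share the arrays and their floors.

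Between single genes, the 105 pairs of the 15 members had r from -0.57 to 0.59, with a median of 0.02. The 21 pairs of maternally expressed genes ranged from -0.42 to 0.59 and the 21 pairs of paternally expressed genes from -0.57 to 0.40. The highest was Phlda2 with Tspan32, which lie in the same cluster, and it came to 0.20 without the 2 outermost cells. The lowest was Mest with Snrpn. Meg3, the most variable member, was not followed by Mest (r = 0.04) or Phlda2 (r = 0.29).

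Factors known to protect or erase imprints were read beside the members. Of 23 listed, 22 were measured, 20 were above the floor in at least 3 cells (55.8% of all genes) and 13 in all 20 (17.3% of all genes). Levels were 12.99 ± 0.21 for Dppa3, which guards methylation in the zygote, 12.48 ± 0.14 for Trim28, the corepressor recruited by ZFP57, 11.75 ± 0.33 for the zinc finger gene Zfp42 and 11.61 ± 0.54 for Tet1, which oxidises methylcytosine (SD, n = 20 each). Tet3 was above the floor in no cell. Zfp57 was above it in 2 cells, both epiblast-like, and its clusters did not overlap (6.36 ± 0.24 in epiblast-like cells and 5.71 ± 0.25 in primitive endoderm-like cells), although nearly all of these values lie below the floor. None was at least 2-fold higher in the epiblast-like cells and 4 were at least 2-fold lower, beside 11.1% and 7.70% of all genes tested. Dnmt3l, the cofactor of the methyltransferases that set imprints in germ cells, was detected in 5 epiblast-like and all 10 primitive endoderm-like cells (6.83 ± 2.79 and 10.95 ± 0.85, difference -4.12). The others were the methyltransferase gene Dnmt3a (-1.81), the imprint-binding zinc finger gene Zfp445 (-1.46) and Arid4b (-1.11), and all 4 overlapped between the clusters. With values raised to the floor, Dnmt3l (-2.95) and Zfp445 (-1.25) stayed at least 2-fold lower, while Dnmt3a (-0.90) and Arid4b (-0.68) did not.

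A further list of 48 imprinted genes was read in the same way. Of these, 40 were measured, 18 (45.0%) were detected in at least 3 cells, 2 in all 20 (H13 and Commd1) and 20 in none. Over all genes these shares were 55.8%, 17.3% and 35.1%. Levels were 10.68 ± 0.43 for H13, the host gene of Mcts2, 10.24 ± 1.5 for the amino acid transporter gene Slc38a4, 9.995 ± 0.63 for Commd1 and 9.71 ± 1.34 for the ubiquitin ligase gene Ube3a. The largest differences between clusters were 1.53 for Trappc9, 1.02 for Slc38a4, -1.01 for Tssc4 and 0.79 for Ube3a. With values raised to the floor these were 1.21, 0.81, -0.565 and 0.67. Slc38a4 was detected in all 10 epiblast-like cells and 9 primitive endoderm-like cells.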

How the data were processed

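Expression was measured in 20 single inner cell mass cells, 1 array each. Per the labels' protocols, cDNA of the unpurified lysate was amplified by PCR and labelled with biotin. The values deposited by the authors were linear intensity per probe set, with 1 as lower limit. No summarisation software or scaling is named in the sources used here. How evenly PCR amplified the cDNA of each cell was not measured, so the spread between arrays includes it.

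Control probe sets were dropped, leaving 45037, of which GEO's platform annotation named 1 gene for 34945, several for 932 and none for 9160. Intensity was quantile-normalized and set on the scale log2(intensity + 8.75), the pseudocount being the median 25th percentile of the arrays. Detection was a level above the array's 95th percentile of unrelated probe sets. Genes above it in at least 3 cells entered comparisons. Ward's method clustered the cells on 500 genes of the largest variance over limma's trend (limma 3.58.1, R 4.3.3, scipy 1.17.1), without imprinted and list genes, with a silhouette of 0.109 for 2 clusters and 0.071 for 3. The leading 10 genes held 2 epiblast markers (Fgf4 and Klf2) in one cluster and 7 primitive endoderm markers in the other. Scores of the full marker lists named the clusters. Of 12 epiblast markers detected in at least 3 cells, 8 were at least 2-fold higher in epiblast-like cells and 0 lower (all genes: 11.1% and 7.70%). Of 14 primitive endoderm markers so detected, 11 were at least 2-fold lower there and 1, Hnf4a, was higher (2.44). Sox7 and Apoe hardly differed (0.03 and 0.06), and Dab2 was in no cell. Scores are mean levels of a list, centred per gene. The steps were tested on simulated data with known groups planted in brighter genes. Spread between cells was capped there below the median SD of the genes tested here. That setting was easier than these cells, so it cannot show how well the clusters are resolved. No p-values were computed, and arrays limit precision by their number. No 2 arrays shared over 0.008% of their values. The members and lists were chosen with earlier results of these data known. Values by cell are given for members with an SD or cluster difference of at least 1 and for the 5 brightest; of the other lists, the 4 brightest and the 4 with the largest difference. Alternatives tried were the scaling, pseudocount, floor, probe set choice, filter, cell grouping, and leaving out cell 19 or cells of low G2 and M phase score.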

Additional observations from a re-analysis of the deposited data

How the results depend on the processing

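Of 77 recomputed counts and medians over the members, 59 stayed within the set tolerance (1.5 times a count, or 1 SD of a value) and 18 moved. Of 270 single-gene values, 19 moved and 251 did not, and all that moved were counts of cells above the floor. A difference between clusters had the larger SD within a cluster as tolerance, 3.30 for Meg3, so it could hardly move. A reversal could be called only for Mest, and was not. Splitting by Fgf4 or by lineage markers gave the main clusters again, so values could not change there. Differences near 0 changed sign for Meg3 (-0.63 to 1.02), Ddc (-0.58 to 1.11), Asb4 (-0.06 to 1.29), Igf2r (-0.45 to 0.18), Phlda2, Snrpn and Tspan32. Mest stayed lower in epiblast-like cells throughout (-1.63 to -0.73), as did Gnas (-0.87 to -0.19). Impact (-1.54 to -0.05), Kcnq1ot1, Mcts2, Peg3 and Zim1 also stayed lower there, and Dcn stayed higher (0.23 to 0.47). With the floor at the 99th percentile (7.72 to 9.33), 1 member (Gnas) was above it in all cells, 9 in at least 3, the medians per cell were 2 maternally and 3 paternally expressed members against 5 each, and 0 were at least 2-fold lower. When a gene's probe sets were averaged, 1 (Zim1) was detected in all cells, 9 in at least 3, with medians per cell of 3 for both classes. The median SD of 0.91 became 0.63 with values raised to the floor and 0.65 with no filter. The count at least 2-fold lower, 1 (Mest), became 2 with the smaller pseudocount and without cell 19 (Impact added), 0 with values raised to the floor, and 2 with the brightest probe set by linear intensity (Igf2 added), a setting chosen after seeing the data. Without the 4 cells of low G2 and M phase score it was 0, and 2 were higher (Ddc and Meg3). Clustering on genes from a lowess trend, also chosen after seeing the data, moved cell 6 to the epiblast-like cells, and 1 was then higher (Asb4). The causes of these changes were not tested. Dim members near the floor are limited by the signal over background.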

Other observations

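Cell 4 had the highest levels of several imprinted genes. It was the highest of the 20 cells for Meg3 (12.20), Rian (7.5), Ddc (10.34) and Kcnq1ot1 (8.27), and it had 14 members above its floor, a number also found in cells 1 and 11. Other cells also led for several members: cell 15 for Gnas (11.85), Phlda2 (9.1) and Dcn (8.36), and cell 20 for Igf2r (9.39) and Mest (8.89). Cell 4 had the lowest G2 and M phase score (-2.83), and the part of the cell cycle in its levels was not tested. In cells 4, 8, 17 and 20, the 4 of low score, Meg3 read 12.20, 5.42, 11.85 and 11.18, Mest 8.31, 7.85, 5.46 and 8.89, and Ddc 10.34, 10.01, 4.21 and 10.23, so each of the 3 genes was below the floor in 1 of them.

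Oocyte genes were read beside the maternally expressed members. Of 11 measured, 5 were above the floor in at least 3 cells, against 55.8% of all genes. Of these 5, 3 (Ooep, Zp3 and Oosp1) were at least 2-fold higher in epiblast-like cells, against 11.1% of the genes tested. With values raised to the floor their differences were 1.55, 1.22 and 0.05, where a gene below it in every cell has -0.19. Oocyte scores were 0.62 ± 0.62 in epiblast-like and -0.62 ± 0.48 in primitive endoderm-like cells (SD, n = 10 each). The score of the maternally expressed imprinted genes was 0.04 ± 0.48 in epiblast-like cells and -0.04 ± 0.53 in primitive endoderm-like cells.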
